A study of Rattus norvegicus with 38 samples.

Results

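Blood vessels cut from the cortex of old hypertensive rats were compared with those of normotensive rats of the same age. The hypertensive group was SHRSP, the stroke-prone spontaneously hypertensive rat, and the control group was Wistar, both at the stage labelled late (32 to 34 weeks of age). Its libraries were picked out by their labels and make up 9 of the 38 of the series, 5 from SHRSP and 4 from Wistar animals. Each library came from 1 of 19 animals, read from the animal number in its title: 378, 379, 381, 382 and 384 for late SHRSP, and 350, 351, 353 and 354 for late Wistar. The same numbers also mark a library of cortical neurons, and a further 10 animals, 5 of each strain, gave vessels and neurons at the early stage (24 to 25 weeks). No treatment, transgene or deletion is named for any group. Tissue was collected by laser microdissection, and RNA was extracted with a kit for very small inputs. Libraries were made from the 3′ ends of transcripts, so reads come from those ends rather than cover whole transcripts. The title of the series asks whether hypertension leaves different signatures at different stages, and the comparison addresses its later stage in the vessel wall and whatever was cut with it.

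SHRSP rats develop severe hypertension from youth and are prone to stroke, and the strain descends from Wistar-Kyoto stock by selection. Lasting high pressure is known to thicken the smooth muscle layer of small brain arteries, to stiffen their matrix and to weaken the endothelial blood-brain barrier. Wistar rats are an outbred normotensive stock rather than a matched parent strain, so differences of blood pressure and differences of inherited sequence between the strains cannot be told apart. A cut vessel can hold endothelial cells, smooth muscle cells, pericytes, fibroblasts and the astrocyte endfeet around them. In such bulk samples, fewer cells of a type and less RNA per cell also cannot be told apart.

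The count table names its features by Ensembl identifiers (IDs) only, and 0 of its 32883 IDs matched the reference gene table, so no gene symbol, position, sequence or function is given for any of them. The labelled material could therefore not be checked against named vessel markers. It was checked with IDs that separated vessels from neurons in the 10 early animals, none of which is among the 9 late ones. The 100 IDs enriched in early vessels took 7.06% to 13% of the counts of the late vessel libraries and 2.87% to 5.43% of those of the late neuron libraries, with no overlap between the materials.

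The 9 late vessel libraries held 2291689 to 4963429 counts and between 9875 and 11974 detected IDs. Mean totals were 3933916 ± 1067960 (SD, n = 5) in SHRSP and 3910656 ± 1127374 (SD, n = 4) in Wistar (two-sided exact permutation test over libraries, p = 0.984, adjusted over 3 library measures 0.984). The number of IDs detected was 10607 ± 773 in SHRSP and 11134 ± 631 in Wistar (exact permutation p = 0.302, adjusted 0.452). The ID with the most counts over all 38 libraries took 9.69% to 31.0% of a library's counts in SHRSP and 22.3% to 34.0% in Wistar (exact permutation p = 0.175, adjusted 0.452). The smallest p that this design allows is 0.00794. As a check for a library deposited more than once, the 16 pairs of libraries within a strain were compared, and the closest pair had a chi-square of 33.3 per degree of freedom, far from sampling noise. Early vessel libraries, set beside the late ones below, detected 4104 to 10207 IDs in SHRSP and 5833 to 11754 in Wistar. A 0 in them can mean a missed transcript as well as an absent one.

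A single ID, ENSRNOG00000038999, passed the test between the strains, and it was higher in SHRSP. With edgeR's quasi-likelihood test and Benjamini-Hochberg adjustment, 1 of the 10504 IDs tested was called higher (0.00952%) and 0 were called lower (0%). At an unadjusted p under 0.05, 131 IDs were higher (1.25%) and 143 were lower (1.36%). DESeq2 called 1 ID higher and 3 lower, limma voom called the 1 higher ID alone, and leaving out the filter on low counts gave 4 higher and 2 lower. The typical difference was small against its error: the median of the log2 fold changes, SHRSP minus Wistar, was −0.01, the median of their absolute values was 0.40, and the median standard error was 0.74. For the neuron libraries of the same animals the median standard error was 0.27. The common biological coefficient of variation was 0.913 in late vessels, 1.67 in early vessels, 0.267 in late neurons and 0.398 in early neurons.

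**Figure D1:**
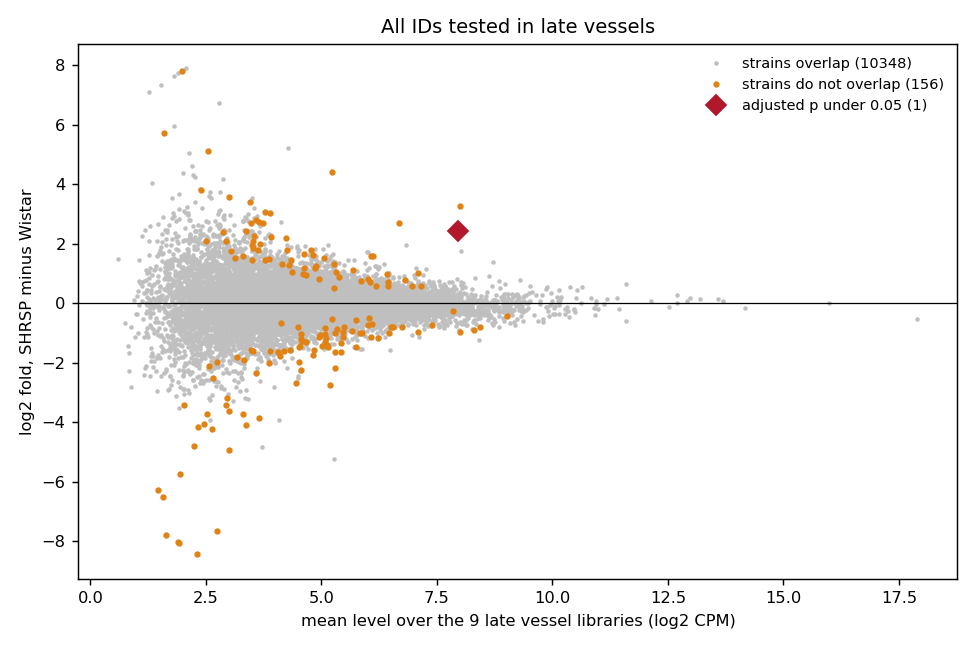
Each point is 1 of the 10504 IDs tested in late vessels, with its mean level on the horizontal axis and its log2 fold change, SHRSP minus Wistar, on the vertical axis, and orange points mark IDs whose strains did not overlap. The 1 called ID lies at a log2 fold change of 2.42, and the scatter narrows as the level rises.

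The spread depended on the level. Levels are given as CPM, the counts of an ID relative to the total of its library, scaled by the normalized totals of each 2-strain fit. Ranked by mean CPM and divided into 3 equal parts, the lowest part (1.52 to 13.9 CPM) had a median standard error of 1.66 on the log2 scale, and 83.8% of its IDs had no count in at least 1 library. The middle part (13.9 to 41.0 CPM) had a median standard error of 0.74, with 17% of IDs at 0 in a library. The highest part (above 41.0 CPM) had a median standard error of 0.38, and 10 of its 3501 IDs (0.286%) were at 0 in any library. The unadjusted calls followed the same order, with 41, 77 and 156 IDs from the lowest to the highest part.

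Complete separation of the strains was about as frequent as random labels would give. For 67 IDs all 5 SHRSP libraries lay above all 4 Wistar libraries (0.638% of those tested), and for 89 all lay below (0.847%). With labels at random, 1 of the 126 ways to assign the strains gives such a separation in a given direction, a fraction of 0.00794. Both shares are near it. The higher ones had a median log2 fold change of 1.6 and the lower ones −1.47. Of the 67, 34 had a mean of at least 20 CPM, 30 had an unadjusted p under 0.05 and 1 was called. Of the 89, 53 reached 20 CPM, 52 had an unadjusted p under 0.05 and 0 were called by edgeR, with 3 lower IDs called by DESeq2 and 0 by limma voom.

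ENSRNOG00000038999 stood at 500.2, 495, 303, 351 and 304 CPM in SHRSP animals 378, 379, 381, 382 and 384. In Wistar animals 350, 351, 353 and 354 it stood at 99.8, 54.1, 61.1 and 76.3 CPM. The lowest SHRSP library was therefore above the highest Wistar library, and animals 378 and 379 lay above the other SHRSP animals. The means were 391 ± 99.5 (SD, n = 5) and 72.8 ± 20.2 (SD, n = 4), a 5.36-fold difference (log2 fold change 2.42, SE 0.30, edgeR adjusted p = 0.000216). Without any 1 of the 9 animals the log2 fold change stayed between 2.30 and 2.61 and the edgeR adjusted p between 0.000485 and 0.00315. The call was lost when all 19 vessel libraries shared 1 estimate of the spread (log2 fold change 2.42, SE 0.56, edgeR adjusted p = 0.153).

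The same ID was called higher in SHRSP in the other material and at the earlier stage as well. In early vessels it ranged from 593 to 2396 CPM in SHRSP and from 4.50 to 303 CPM in Wistar (log2 fold change 3.65, SE 0.58, edgeR adjusted p = 1.18e-05). In late neurons the SHRSP libraries ranged from 27.1 to 82.0 CPM and the Wistar libraries from 11.1 to 22.1 CPM (1.70, SE 0.29, edgeR adjusted p = 0.0191). In early neurons the ranges were 65.0 to 138 CPM and 13.9 to 49.9 CPM (1.82, SE 0.30, edgeR adjusted p = 0.0427). The strains did not overlap in any of these 3 comparisons. The calls outside late vessels were less firm. With limma voom the adjusted p was 0.212 in early vessels, 0.051 in late neurons and 0.123 in early neurons. The edgeR call in late neurons was lost without animal 353, 354, 378 or 384 (adjusted p 0.0578 to 0.0926), and that in early neurons without animal 340, 346, 349, 368, 374, 377, 380 or 386 (0.0794 to 0.220). The ID was itself among those enriched in vessels over neurons in early animals of both strains, with a log2 difference of 2.30. That choice included the early SHRSP vessels, where it was high. In early Wistar animals 340, 346 and 349 its vessel level (16.2, 4.50 and 28.5 CPM) lay below its neuron level (24.0, 31.8 and 31.5 CPM). Its vessel level was above in animals 343 and 368 (303 and 112 against 49.9 and 13.9 CPM). Its strain difference in late vessels was not shown to differ from that in early vessels (late minus early −1.40, SE 0.71, edgeR adjusted p = 0.686) or from that in late neurons (vessels minus neurons 0.70, SE 0.41, edgeR adjusted p = 1).

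**Figure D2:**
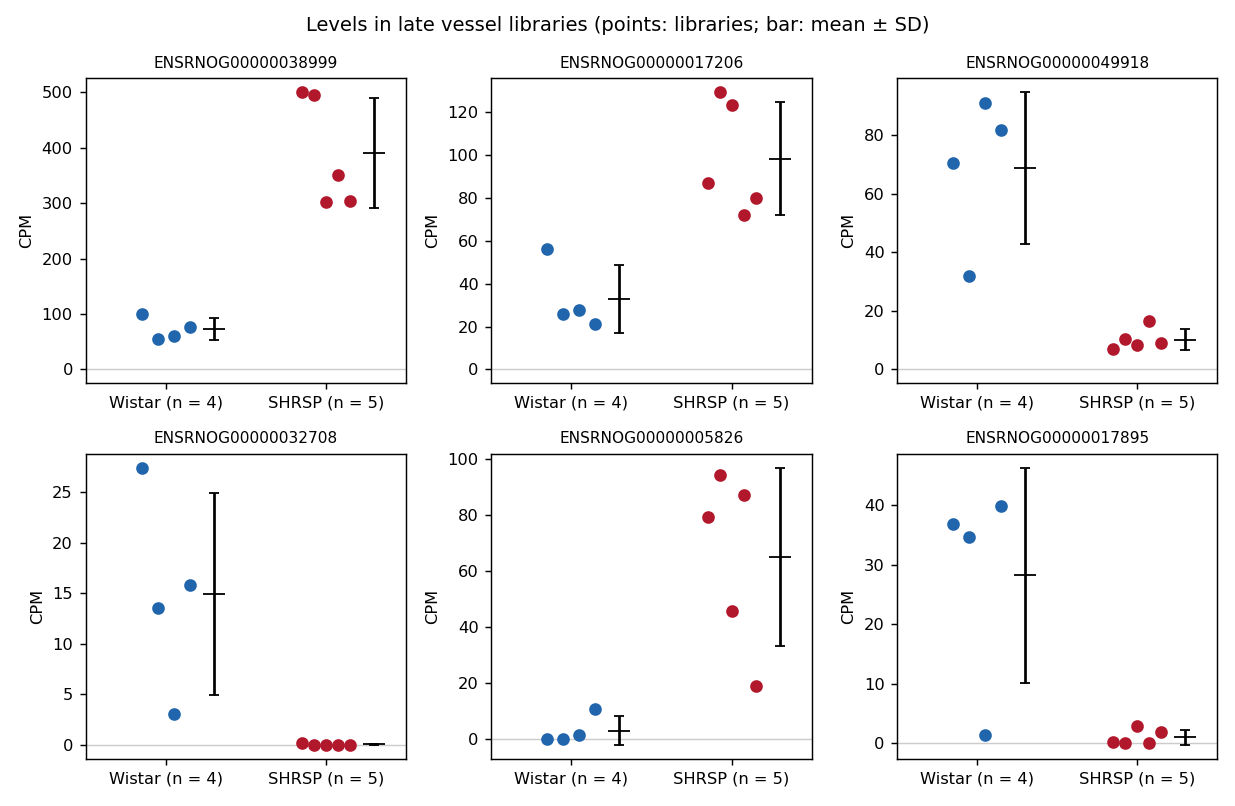
Levels in CPM (linear axis) in each of the 4 Wistar (blue) and 5 SHRSP (red) late vessel libraries, with mean and SD beside them, for 6 IDs, of which 4 had the smallest p in their direction and 2 were called in neurons. ENSRNOG00000038999 has its 5 SHRSP libraries between 303 and 500.2 CPM, above the 4 Wistar libraries between 54.1 and 99.8.

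Among the higher IDs that did not pass, ENSRNOG00000017206 had the smallest p. It measured 86.8, 129, 124, 72.1 and 80.1 CPM in SHRSP animals 378, 379, 381, 382 and 384, and 56.3, 26.0, 27.5 and 21.1 CPM in Wistar animals 350, 351, 353 and 354. The strains did not overlap, and Wistar animal 350 came nearest to the SHRSP range. The log2 fold change was 1.58 (SE 0.40, unadjusted p = 0.000584, edgeR adjusted p = 1). Its strain difference was 0.21 (SE 2.09) in early vessels, 0.60 (SE 0.26, edgeR adjusted p = 0.766) in late neurons and −0.03 (SE 0.32) in early neurons, each on the log2 scale.

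ENSRNOG00000049918 was the lower ID nearest to the threshold. Its level was 6.89, 10.4, 8.26, 16.3 and 8.90 CPM in SHRSP animals 378, 379, 381, 382 and 384, against 70.4, 32.0, 90.8 and 81.6 CPM in Wistar animals 350, 351, 353 and 354. The strains did not overlap, and animal 351 was the lowest of the Wistar libraries. The means of 10.2 ± 3.68 (SD, n = 5) and 68.7 ± 25.8 (SD, n = 4) gave a log2 fold change of −2.75 (SE 0.52, edgeR adjusted p = 0.0872). The adjusted p was 0.00102 with DESeq2, 0.0106 with edgeR and no filter on low counts, and 0.0356 with edgeR without Wistar animal 351. It was 0.871 with limma voom, 0.978 with library weights added and 1 with all 19 vessel libraries in the edgeR fit or without Wistar animal 353, so the call depends on these choices.

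The measured level of the same ID was low elsewhere. Early vessels gave 12.3 ± 12.5 CPM (SD, n = 5) in SHRSP and 6.06 ± 9.74 CPM (SD, n = 5) in Wistar, with 2 and 3 libraries at 0, and no neuron library exceeded 4.73 CPM. The early vessel libraries at 0 were of animals 374, 377, 343, 346 and 368, with 6088, 4104, 6453, 5833 and 6543 IDs detected. Animals 380 and 386, with 5745 and 6549, had counts. Low level and missed detection cannot be told apart there. The strain difference of ENSRNOG00000049918 in vessels minus that in neurons of the late animals was −2.96 (SE 0.76, edgeR adjusted p = 0.516), and its late minus early difference in vessels was −3.85 (SE 2.62, edgeR adjusted p = 0.882).

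ENSRNOG00000032708 was almost without counts in SHRSP. Among the late vessel libraries 1 count was found in SHRSP animal 378, or 0.172 CPM, and none in the other 4 SHRSP animals. Wistar animals 350, 351, 353 and 354 gave 27.4, 13.5, 3.06 and 15.8 CPM, or 243 counts in all. The pooled level was 345-fold higher in Wistar, with a 95% interval from 61.3 to 13678 that covers counting error of reads only, not the spread between animals. The edgeR adjusted p was 1 (unadjusted 0.000738), and the DESeq2 adjusted p was 0.00255. No count of this ID was found in any SHRSP library of the other groups, which were early vessels, late neurons and early neurons with 5 libraries each. In Wistar it had counts in 1 of 5 early vessel libraries, 2 of 4 late neuron libraries and 3 of 5 early neuron libraries, at no more than 7.32 CPM.

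Features with counts in every library of 1 strain and in none of the other were also counted. In late vessels 11 IDs had no count in the 5 SHRSP libraries and counts in all 4 Wistar libraries, among 644 IDs that were at 0 in exactly 5 of the 9. Their Wistar means ran from 0.956 to 16.8 CPM. Set against a floor of 3 counts over the SHRSP group, their pooled levels were 6.62-fold to 99.4-fold higher in Wistar. These values cover counting error of reads only, not the spread between animals. The ID at 99.4-fold had from 1 to 89 counts in the Wistar libraries and did not pass the filter on low counts. Only 4 of the 11 passed the filter on low counts, with unadjusted p from 0.00165 to 0.00396 and no call by edgeR. DESeq2 called 1 of them, ENSRNOG00000019128, named after its values were seen (log2 fold change −7.89, DESeq2 adjusted p = 0.0150). The reverse pattern, no count in Wistar and counts in all 5 SHRSP libraries, held for 4 of 675 IDs at 0 in exactly 4 libraries, of which 1 was tested. With the same floor their pooled levels were 6.81-fold to 41.6-fold higher in SHRSP, again covering counting error of reads only. With zeros placed at random over the 9 libraries, 1 of 126 arrangements gives each pattern, a fraction of 0.00794. The number of IDs with no SHRSP count rises to 30 without Wistar animal 350, and that with no Wistar count to 12 without Wistar animal 354.

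The neuron libraries of the same animals held counts of these IDs. Of the 11 without counts in SHRSP vessels, 7 had counts in all 5 late SHRSP neuron libraries and 0 were at 0 in all of them. Late neuron levels of the strains overlapped for 9 of the 11, and 0 of the 4 tested there had an unadjusted p under 0.05. ENSRNOG00000012932 and ENSRNOG00000017286 did not overlap, were lower in SHRSP as in vessels, and were not among the 4 tested. The share without overlap over all IDs of late neurons is not given here, so these counts have no background to be read against. Of the 4 without counts in Wistar vessels, 2 had counts in all 4 late Wistar neuron libraries, 0 were at 0 in all of them, and the strains overlapped for all 4.

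Strain differences called in the other groups were then followed into late vessels. Early vessels, from other animals, gave 9 calls among 5795 IDs tested, 7 higher in SHRSP (0.121%) and 2 lower (0.0345%). In late vessels the log2 fold changes of the 7 ran from 0.02 to 2.42 with a median of 0.91, beside a median of −0.01 over all IDs tested. Of these 7, 3 had an unadjusted p under 0.05 (2.61% of all IDs tested in late vessels) and 1, ENSRNOG00000038999, was called. The 2 lower ones stood at −0.14 (SE 0.21) and 0.29 (SE 0.38) in late vessels, so 1 had the opposite sign, and neither had an unadjusted p under 0.05.

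**Figure D3:**
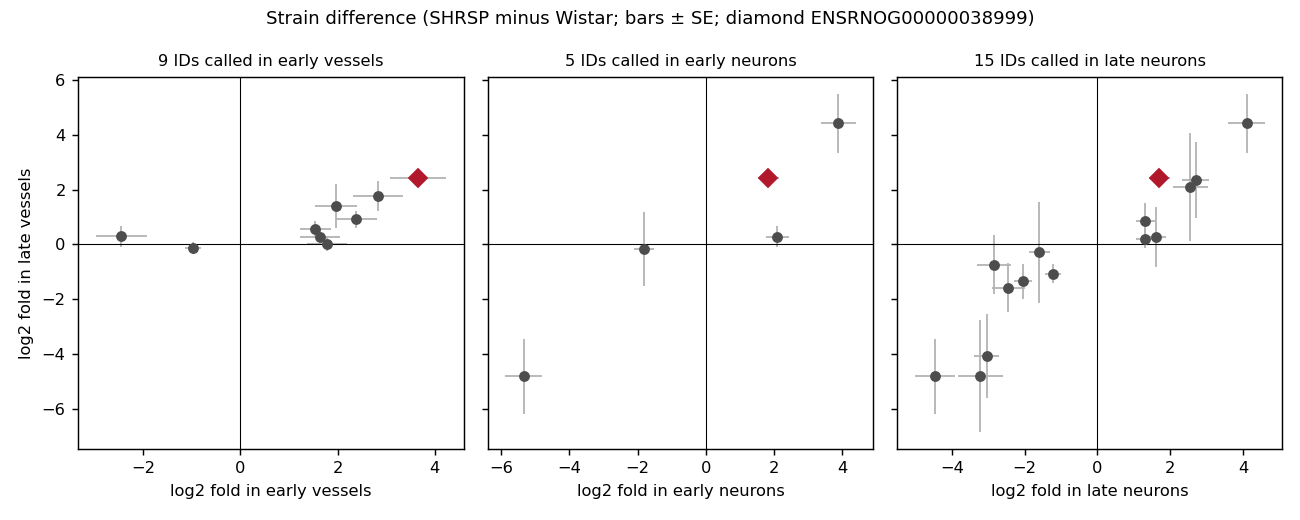
Log2 fold changes, SHRSP minus Wistar, of IDs called in early vessels, early neurons or late neurons, on the horizontal axis against that of the same ID in late vessels, with standard errors; the diamond is ENSRNOG00000038999. Of the 9 called in early vessels, 8 have the same sign in late vessels.

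Early neurons, also from other animals, gave 5 calls among 9789 IDs tested, 3 higher (0.0306%) and 2 lower (0.0204%). In late vessels all 5 had the same sign as in early neurons, 3 of them with an unadjusted p under 0.05. Over all IDs tested in late vessels, 49.6% were positive and 2.61% had such a p. Beside ENSRNOG00000038999, these were 2 IDs described here after their values were seen, ENSRNOG00000005826 and ENSRNOG00000017895. The other higher call stood at 0.28 (SE 0.38) and the other lower call at −0.17 (SE 1.35) in late vessels. The number of calls in early neurons ranged from 2 to 17 when 1 animal was left out and was 46 with DESeq2 and 0 with limma voom.

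ENSRNOG00000005826 measured 79.1, 94.0, 45.7, 87.1 and 18.9 CPM in late vessels of SHRSP animals 378, 379, 381, 382 and 384. Wistar animals 350 and 351 had no count, and animals 353 and 354 stood at 1.31 and 10.7 CPM. The strains did not overlap, and animal 384 was the lowest SHRSP library. The log2 fold change was 4.42 (SE 1.07, edgeR adjusted p = 1), and it was 7.53 without Wistar animal 354 (edgeR adjusted p = 0.000602). Without a filter on low counts the edgeR adjusted p was 2.39e-06, while DESeq2 gave 0.392 and limma voom 0.815. It was called in late neurons (log2 fold change 4.10, SE 0.50, edgeR adjusted p = 0.000755) and in early neurons (3.88, SE 0.50, edgeR adjusted p = 0.00577, limma voom adjusted p = 0.244). In early vessels 3 of 5 SHRSP libraries had counts, at 44.1 to 255 CPM, and 1 of 5 Wistar libraries, at 4.88 CPM.

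ENSRNOG00000017895 was near 0 in SHRSP vessels. SHRSP animals 378, 379, 381, 382 and 384 gave 0.172, 0, 2.82, 0 and 1.85 CPM, and Wistar animals 350, 351, 353 and 354 gave 36.9, 34.6, 1.31 and 39.9 CPM. The strains overlapped through Wistar animal 353, whose vessel level lay among the SHRSP values. The log2 fold change was −4.82 (SE 1.38, edgeR adjusted p = 1). In late neurons, where every Wistar library was between 17.8 and 39.8 CPM, it was −4.47 (SE 0.56, edgeR adjusted p = 0.000965), and in early neurons −5.33 (SE 0.54, edgeR adjusted p = 0.000506, limma voom adjusted p = 0.323). All 5 early SHRSP vessel libraries were at 0, and the early Wistar vessel libraries ranged from 0 to 64.2 CPM.

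**Figure D4:**
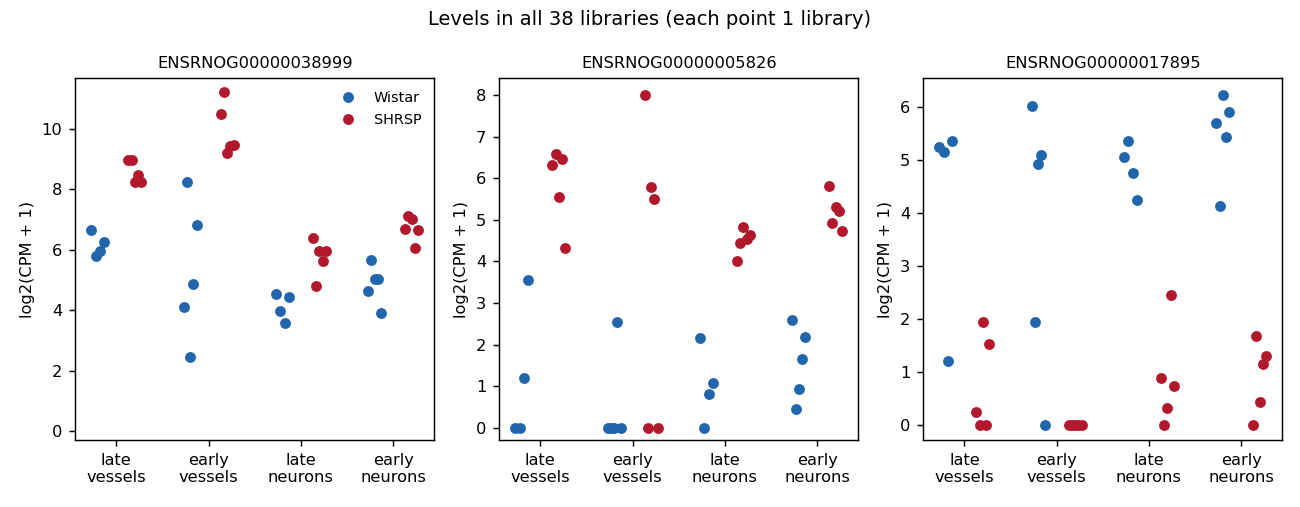
Levels as log2(CPM + 1) of ENSRNOG00000038999, ENSRNOG00000005826 and ENSRNOG00000017895 in all 38 libraries, 1 point each, with Wistar (blue) and SHRSP (red) side by side for each material and stage. The strains separate for ENSRNOG00000038999 in all 4 columns, and Wistar animal 353 at 1.31 CPM lies among the late SHRSP vessels for ENSRNOG00000017895.

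Late neurons, cut from the same 9 animals as the vessels, gave 17 calls among 10154 IDs tested, 7 higher (0.0689%) and 10 lower (0.0985%), and 15 of the 17 were tested in vessels. The log2 fold changes in vessels ran from 0.20 to 4.42 for those higher in neurons and from −4.82 to −0.29 for those lower, and 7 of the 15 had an unadjusted p under 0.05, beside 2.61% of all IDs tested in late vessels. In the neurons the number of calls was 33 without Wistar animal 351 and 6 without SHRSP animal 378, and 52 with DESeq2.

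IDs enriched in vessels over neurons leaned towards SHRSP in the late animals. They had been chosen in the 10 early animals at an adjusted p under 0.05 and at least a 2-fold difference (100 of 10281 IDs, 0.973%), and 2420 IDs (23.5%) were enriched in neurons by the same rule. Early vessel libraries detected a median of 6088 IDs in SHRSP and 6543 in Wistar, and early neuron libraries 13791 and 13033. In late vessels 74 of the 100 vessel-enriched IDs had a positive log2 fold change (74%), with a median of 0.32, and 16 had an unadjusted p under 0.05, all of them higher in SHRSP. Over all IDs tested 49.6% were positive, with a median of −0.01, and 2.61% had an unadjusted p under 0.05, with 1.25% higher and 1.36% lower. Of the 2036 neuron-enriched IDs tested, 49.3% were positive, with a median of −0.01, and 7 were higher and 13 lower at an unadjusted p under 0.05. The median standard error was 0.33 in the vessel-enriched set, 0.74 over all IDs tested and 1.34 in the neuron-enriched set. The shares at an unadjusted p under 0.05 therefore compare sets of unlike precision. Of the vessel-enriched IDs, 3 (3%) separated the strains completely, beside 1.49% of all IDs tested and 0.982% of the neuron-enriched ones, and 1, ENSRNOG00000038999, was called. Early SHRSP vessels, where this ID was also called higher, took part in choosing the set.

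This lean rested in part on single animals and on how the IDs were chosen. The number with an unadjusted p under 0.05 and higher in SHRSP was 7 without SHRSP animal 382 and 26 without SHRSP animal 384. The share with a positive log2 fold change ranged from 68.7% to 80% as 1 animal was left out. Early SHRSP libraries took part in choosing the 100 IDs. Chosen in early Wistar animals alone, 45 IDs were vessel-enriched, of which 29 (64.4%) were positive in late vessels, with a median of 0.14 and 7 higher at an unadjusted p under 0.05.

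The 100 vessel-enriched IDs took 13%, 11.6%, 9.58%, 11.5% and 7.44% of the counts in late vessels of SHRSP animals 378, 379, 381, 382 and 384. They took 10.5%, 8.18%, 7.06% and 9.70% in Wistar animals 350, 351, 353 and 354. These ranges overlap, with means of 10.6% ± 2.15 (SD, n = 5) and 8.86% ± 1.53 (SD, n = 4). The neuron-enriched IDs took 5.69% ± 0.617 (SD, n = 5) of SHRSP and 5.42% ± 1.01 (SD, n = 4) of Wistar vessel counts. How far the amount of vessel in the cut tissue sets the differences of single IDs was not tested.

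**Figure D5:**
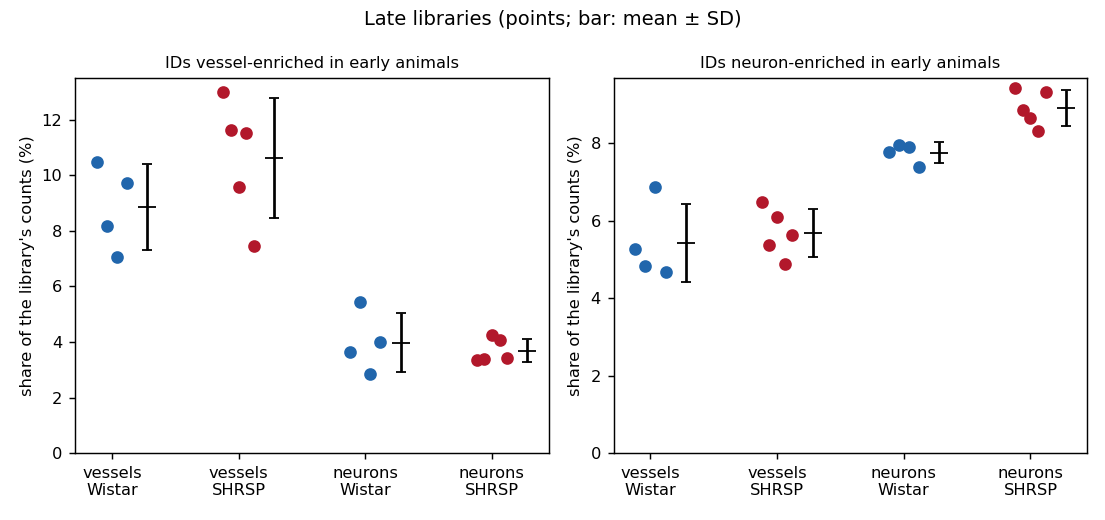
Percent of each late library's counts taken by the IDs enriched in vessels (left) and by those enriched in neurons (right), both chosen in early animals, for Wistar (blue) and SHRSP (red) vessels and neurons, with mean and SD. In late vessels the vessel-enriched share runs from 7.44% to 13% in SHRSP and from 7.06% to 10.5% in Wistar.

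Whether the strain difference in vessels changed between the stages was tested over all 19 vessel libraries. The strain by stage term passed for 1 of 11011 IDs, which was lower (0.00908%), and for 0 higher (0%). At an unadjusted p under 0.05, 543 were higher (4.93%) and 245 lower (2.23%). The called ID, ENSRNOG00000061934, named after its values were seen, had no count in the 5 late SHRSP vessel libraries and counts in 3 of the 4 late Wistar ones, with a Wistar mean of 9.26 CPM. These late values are only a part of the term, which also depends on the early vessel levels of both strains, not given here. DESeq2 called 128 IDs for this term and limma voom 0. The strain by material term, vessels minus neurons in the late animals, passed for 0 of 11473 IDs with edgeR (0%), of which 521 (4.54%) had an unadjusted p under 0.05, and DESeq2 called 13 and limma voom 0.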

How the data were processed

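The authors deposited 1 table of raw read counts per Ensembl ID for 38 libraries of laser-cut cortical vessels and neurons, unnormalized per the whole-number values in it. Counting and alignment tools appear in the submitters' processing notes without roles, as HTSeq 0.6.1, STAR 2.5.3a, DESeq2 1.18.1 and FastQC 0.11.5. Build, annotation and strand setting were not given in the sources used here, so reads of overlapping or antisense genes and near-identical copies cannot be told apart. Library preparation counts 3′ ends, per the labels' protocols. Without molecular identifiers in the table, repeated copies of 1 molecule cannot be told apart, and the intervals cover counting error of reads only.

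Strains were compared as SHRSP minus Wistar with edgeR 4.0.16 (R 4.3.3), with TMM scaling, its default low-count filter, the robust quasi-likelihood F test and Benjamini-Hochberg adjustment over all IDs tested (threshold 0.05). Each pair of groups was fitted alone, and interaction terms used 4 groups. Standard errors of edgeR fits were derived from the test, as the absolute log2 fold change divided by the square root of F. The direction of the strain comparisons and interaction terms was first checked on simulated counts with known changes. That check set no requirement on the share of changes found or on false calls at the threshold. The choice of enriched IDs, the fit with a replicate block and the permutation tests were not checked in this way. DESeq2 1.42.0, limma 3.58.1 voom, other scalings and filters (at least 10 counts in 4 libraries) and leaving out each animal were alternatives. The comparison, lists and several tests were chosen with earlier results of these data known, and the early neuron comparison and the counts of non-overlapping and absent IDs were added after seeing the data. The rule for named IDs was every called ID and, since the table holds no names, at most 2 IDs in each direction, those of smallest p. The planned pathway and cell type marker lists could not be applied to unnamed IDs. Vessel and neuron libraries were linked through the animal number in their titles.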

Additional observations from a re-analysis of the deposited data

Results flagged for a closer look

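In late vessels 22 groups of values were examined for a library far from the others: 3 library measures, the shares of the 2 enriched sets and the levels of 6 named IDs, each in both strains. Chance flags about 1 in 20 groups, so about 1 among this many, and 3 were found. ENSRNOG00000032708 in SHRSP was set apart by animal 378 at 0.172 CPM, a single count beside 4 libraries at 0, where any count at all would stand apart. ENSRNOG00000005826 in Wistar was set apart by animal 354 at 10.7 CPM, the next library being at 1.31. ENSRNOG00000017895 in Wistar was set apart by animal 353 at 1.31 CPM, the next library being at 34.6.

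The strain difference of ENSRNOG00000061934 in vessels differed between the stages by the edgeR test of the interaction term, with a fitted log2 value of −18.8 (SE 3.62, adjusted p = 0.00221). With no count in the late SHRSP vessels, this value depends on the fit and is not a bound, and limma voom made no call for the term.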

How the results depend on the processing

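Over 16 alternatives the number of late vessel calls was 4 with DESeq2, 6 without a filter on low counts and 0 with all 19 vessel libraries in the fit (102 at an unadjusted p under 0.05), and 1 to 3 as each animal was left out. The call of ENSRNOG00000038999 held in all but the fit of all 19 libraries. The cause of these changes was not tested.

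Early vessels gave 4 calls with limma voom and 5 to 17 as 1 animal was left out. Late neurons gave 52 with DESeq2 and 6 to 33, and early neurons 46 with DESeq2, 0 with limma voom and 2 to 17. The stage term gave 128 with DESeq2, 0 with limma voom, 2 with DESeq2-type scaling and 1 to 2 as 1 animal was left out. The material term gave 13 with DESeq2 and 0 to 2. Non-overlapping IDs numbered 105 to 195 higher and 141 to 243 lower as 1 animal was left out, where fewer libraries need to separate. IDs absent from SHRSP numbered 16 to 30, and those absent from Wistar 5 to 12. The share of vessel-enriched IDs that were higher kept its direction throughout. The difference of mean totals turned to −516395, −234118, −186308 and −72275 counts without animals 353, 378, 381 and 382, the range being −516395 to 366358.

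Single IDs changed sign as follows on the log2 scale. The other lower early neuron call stood in late vessels at 0.03 without animal 350, 0.16 without 351, 0.14 without 382 and 0.15 without 384, within −1.02 to 0.16 over the animals left out. For the stage term ENSRNOG00000005826 was 1.73 with limma voom and 0.98 without animal 354 (−2.28 to 0.98 over the animals left out), and ENSRNOG00000017895 was −0.033 with limma voom. For the material term ENSRNOG00000005826 was −1.08 without animal 350 (−1.08 to 3.55), and ENSRNOG00000017895 was 0.05 without animal 354 and 1.42 without animal 382 (−1.70 to 1.42).

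With the animal as a replicate block, the material term gave 0 calls and 318 IDs at an unadjusted p under 0.05, and no call changed. The sign of that term turned for ENSRNOG00000017895, from −0.33 to 0.077 (SE 7.09), and for the other lower early neuron call, ENSRNOG00000023086, from 0.40 to −0.41 (SE 1.98), and neither was called in either fit. Deviations of the 9 vessel and neuron pairs correlated at −0.227 to 0.339 (median 0.0638), and 2 exceeded 0.1. The median over other pairings was 0.00138, and only 1 of the 9 correlated best within its own pair. The link between the materials rests on the titles. Leaving out mitochondrially encoded IDs was not run, since no table used here names them. Limma voom moved the median log2 fold change of all IDs to −0.12.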
